A study of Mus musculus with 4 samples.

Results

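The cells described here were visceral and yolk sac endoderm cells of the mouse embryo at gastrulation, followed over 3 stages. A cell counted as a member when it had at least 1 UMI (a unique molecular identifier, which marks 1 captured transcript) in 4 or more of the 7 genes Cubn, Apob, Dab2, Apom, Spink1, Fabp1 and Clic6. The members were therefore chosen by the measured values of these genes, and the levels of the 7 genes are given as a description only. The rule found 1278 members among 11123 cells. They were 623 of 3635 cells at the mid to late streak stage (MS-LS), 316 of 3994 at the bud stages (OB-EB) and 339 of 3494 at the early head fold stage (EHF).

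The study profiled dissociated embryos by droplet single-cell RNA sequencing to follow cells that leave the primitive streak. All embryos carried the genotype TnEGP-CreERT2/+; R26Rtdtomato/R26Rtdtomato, in which a tamoxifen-dependent Cre is made where the streak gene T is expressed and then switches on a tdTomato reporter. All were exposed to tamoxifen at 0.08 mg/bw by gavage of the mother. MS-LS embryos were collected at E6 plus 21 h after tamoxifen at E6 plus 5 h, OB-EB embryos at E7 plus 3 h after tamoxifen at E6 plus 21 h, and EHF embryos at E7 plus 14 h after tamoxifen at E7 plus 7 h. Each stage is 1 library of dissociated embryos whose cells are not assigned to embryos, so nothing was tested between stages. The intervals given are exact 95% intervals that cover counting error only, not the spread between embryos or dissections. The tables of a pair of EHF samples held the same count in each of 65128160 places and were counted as 1 library. How much extraembryonic tissue was kept at dissection is not given in the sources used here, so the share of members at a stage and the dissection cannot be told apart.

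The visceral endoderm is an epithelium that covers the early embryo before the yolk sac forms. It takes up maternal nutrients through receptors such as cubilin and megalin, breaks them down in large lysosomes, and secretes apolipoproteins and plasma carriers much as the liver does later. Its anterior part secretes inhibitors of Wnt and Nodal signals that pattern the epiblast, and its extraembryonic part becomes the endoderm of the visceral yolk sac, next to the first blood cells.

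To show members of the gene group that marks these cells by its regulatory sequence, promoters were read for the 18 genes that led the members over the other cells of their libraries. RefSeq promoters (GRCm38.p6, 250 bases before to 50 bases after the gene's start, written along the gene's own strand) were matched for 13 of them, with 14 promoters in all. The promoters that held a match are printed, with the matching letters in capitals. The Afp promoter (alpha-fetoprotein, the classical secreted protein of yolk sac endoderm, chr5:90490464-90490763, plus strand) held an HNF1 match at position -105 from the start. The Rbp4 promoter, the farther upstream of a pair for this gene (retinol carrier of plasma, chr19:38125272-38125571, minus strand) held a FOXA match on the opposite strand at position -241. The Lgals2 promoter (galectin-2, chr15:78855480-78855779, minus strand) held a GATA match at position -90.
Afp: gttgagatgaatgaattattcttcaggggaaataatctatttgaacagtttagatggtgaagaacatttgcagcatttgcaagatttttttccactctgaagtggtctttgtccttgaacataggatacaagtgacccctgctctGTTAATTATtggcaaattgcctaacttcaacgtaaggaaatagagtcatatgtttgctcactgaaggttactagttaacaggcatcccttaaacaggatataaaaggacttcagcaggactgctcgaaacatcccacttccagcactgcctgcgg
Rbp4: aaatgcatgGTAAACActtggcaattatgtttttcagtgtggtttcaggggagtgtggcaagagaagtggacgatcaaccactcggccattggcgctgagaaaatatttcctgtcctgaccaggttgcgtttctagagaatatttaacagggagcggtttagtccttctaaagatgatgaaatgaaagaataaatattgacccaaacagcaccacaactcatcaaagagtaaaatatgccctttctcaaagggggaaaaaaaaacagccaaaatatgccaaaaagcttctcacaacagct
Lgals2: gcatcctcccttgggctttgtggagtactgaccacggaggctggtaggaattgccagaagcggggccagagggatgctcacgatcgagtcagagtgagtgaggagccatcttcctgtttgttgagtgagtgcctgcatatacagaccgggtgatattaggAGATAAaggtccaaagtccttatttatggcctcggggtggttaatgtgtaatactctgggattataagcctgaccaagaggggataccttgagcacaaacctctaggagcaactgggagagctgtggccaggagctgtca
The letters searched on both strands were GTTAATNAT for HNF1, CAAAGTCCA for HNF4, TGTTTAC for FOXA and AGATAA for GATA. Of all 32851 promoters of this length, 0.801% held the HNF1 letters, 0.475% the HNF4 letters, 3.65% the FOXA letters and 11.2% the GATA letters. The other 11 promoters of the leading genes held none of the 4 motifs. These matches describe the letters in the windows and nothing more.

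Members made up 17.1% of the cells at MS-LS (15.9 to 18.4%), 7.91% at OB-EB (7.09 to 8.79%) and 9.70% at EHF (8.74 to 10.7%). Their median UMIs per cell were 4532, 3343 and 6548, against 4170, 2558.5 and 5450 in the other cells. The OB-EB library was thus the shallowest and the EHF library the deepest. The median share of mitochondrial UMIs was higher in members than in other cells in every library, at 2.61% against 1.59%, 2.89% against 1.79% and 1.64% against 1.05%. Between 12 and 18 cell barcodes recurred in a pair of libraries, and 0 of these recurring barcodes belonged to members of both. Each library held cells of both sexes. Among members with a sex call the female share was 51.7% at MS-LS, 53.8% at OB-EB and 82.6% at EHF, and in the other cells it was 51.7%, 64.3% and 86.1%.

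The 7 chosen genes code for an uptake receptor (Cubn), its adaptor (Dab2), lipoprotein components (Apob, Apom), a fatty acid binding protein (Fabp1), a trypsin inhibitor (Spink1) and a chloride channel protein (Clic6). Spink1 was the most abundant of them in members, with 22770 counts per 1000000 UMIs of the group (CPM) at MS-LS, 33717 at OB-EB and 13545 at EHF. Its RNA was also widespread outside the members, where 69.1%, 64.4% and 36.5% of cells had at least 1 UMI. Of the other cells, those with a Fabp1 UMI were 0.83%, 0.625% and 0.824%, so the chosen genes differed widely in how far they reached into other cells. Members had Fabp1 UMIs in 40.1%, 35.1% and 54.9% of cells. Apom stood at 2137, 2254 and 3385 CPM in members, Dab2 at 1721, 2034 and 1458, Cubn at 854, 656 and 791, and Apob at 931, 1042 and 567.

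**Figure D1:**
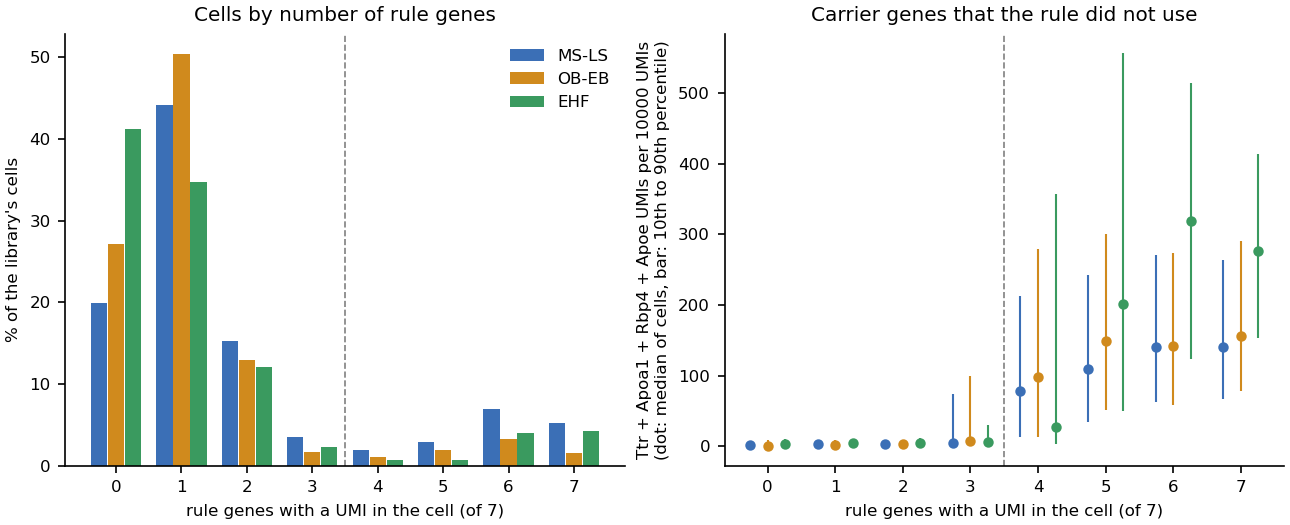
Left, the percentage of each library's cells (y axis) by the number of the 7 chosen genes with a UMI (x axis), coloured by stage; right, the summed UMIs of Ttr, Apoa1, Rbp4 and Apoe per 10000 UMIs of the cell, with dots for the median and bars from the 10th to the 90th percentile of cells. The dashed line is the threshold. Cells with few chosen genes sit near 0 on the right, and medians over cells with 5 or more lie between 109 and 320.

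The number of chosen genes per cell had its fewest cells, above 2, at or next to the threshold. Just inside it, 70, 45 and 27 cells had exactly 4 of the genes, and just outside it 127, 66 and 79 cells had exactly 3. Secreted carriers that the rule did not use were compared on either side. The summed UMIs of Ttr (a thyroid hormone and retinol transporter), Apoa1, Rbp4 and Apoe had a median of 77.5, 97.6 and 26.6 per 10000 UMIs in cells with exactly 4 chosen genes, and of 4.31, 6.84 and 5.48 in cells with exactly 3. Over all members the median was 131 at MS-LS, 143 at OB-EB and 276 at EHF, against 2.51, 2.22 and 3.85 in the other cells. At EHF the cells with exactly 4 chosen genes ran from 2.48 at the 10th to 358 at the 90th percentile, the widest spread of that group in relation to its median, as the plot of chosen genes and carriers shows.

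A small number of members carried few carrier UMIs. Below 20 per 10000 (a limit set after the values were seen) lay 15 of 623 members at MS-LS, 8 of 316 at OB-EB and 15 of 339 at EHF. The 15 EHF cells had a median of 8476 UMIs and of 4 chosen genes, and they carried mesoderm RNA. Hand1, a factor of lateral and extraembryonic mesoderm, had 51 of its 62 member UMIs in them. T, the streak gene, had 20 of its 38 member UMIs there, and Pmp22 had 64 of 73. At MS-LS the 15 cells had a high level of Trh, a thyrotropin-releasing hormone gene seen in early embryonic endoderm (639 CPM against 43.5 in the rest), and of Otx2 (229 against 15.0). Whether such cells are endoderm, other cells with free endoderm RNA or doublets was not tested. In the other cells 61, 54 and 53 cells lay at or above the limit.

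Against the other cells of each library, members stood out in the functions named above. Of the genes with a mean of at least 20 CPM and 20 UMIs in all, 17.2% were past 2-fold higher in members at MS-LS, 16.8% at OB-EB and 14.2% at EHF. The apolipoproteins and lipoprotein assembly genes were past it in 10 of 10 measured genes at MS-LS, 10 of 10 at OB-EB and 9 of 9 at EHF. The endoderm transcription factors were past it in 8 of 9, 7 of 8 and 6 of 7, and the lysosome genes in 15 of 16, 15 of 16 and 15 of 17. Since genes of the same cells defined the members, these counts describe them and are no test.

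The leading genes by the lower bound of the ratio, apart from the chosen ones, were carriers and transporters. Rbp4 was 89.5-fold higher in members than in other cells at MS-LS, 105-fold at OB-EB and 137-fold at EHF. Slc2a2, the low-affinity glucose transporter also known from liver, was 159-fold, 164-fold and 149-fold higher. Ttr was 67.3-fold, 68.0-fold and 132-fold higher. Lgals2, Cldn2 (a tight junction claudin), Amn (the membrane partner of cubilin), Ctsh, Afp, Gipc2, Apoa4, Apoa1, Slco4c1 and Abcc2 were also in the lists of 10. In the other cells Ttr, Apoa1, Rbp4 and Afp were found at 0.731% to 1.57% of their level in members. The part of free RNA and of endoderm cells below the threshold in these levels was not tested.

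The secreted carriers were at their highest at EHF. Ttr stood at 4126 CPM at MS-LS (4057 to 4196), 5204 at OB-EB (5076 to 5335) and 9213 at EHF (9091 to 9335). Rbp4 stood at 2090, 2224 and 5139, and Apoa1 at 3850, 3783 and 6619. The intervals of the MS-LS and OB-EB values overlapped for Apoa1 and for Rbp4 only at their ends, while those of EHF lay apart from both for all 3 genes.

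Most of the difference in the carriers lay between OB-EB and EHF. On the log2 scale Ttr was 0.33 higher at OB-EB than at MS-LS (0.29 to 0.38) and 0.82 higher at EHF than at OB-EB (0.78 to 0.86). Rbp4 differed by 0.09 (0.02 to 0.15) and then by 1.21 (1.15 to 1.27), and Apoa1 by -0.03 (-0.07 to 0.02) and 0.81 (0.76 to 0.85). Over all genes that passed the minimum, the median log2 difference between EHF and OB-EB members was 0.16, so these genes lay above the general shift. In the other cells Ttr changed by -0.13, Apoa1 by -0.05 and Rbp4 by 0.82 over the same step. Apoe, which other cells of the embryo also express, was 0.72 higher at EHF than at OB-EB in members and 0.95 higher in the other cells.

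Of the 10 apolipoprotein and lipoprotein assembly genes that passed the minimum from MS-LS to EHF, 0 were past 2-fold higher and 1 was past 2-fold lower, with a median of 0.70, beside a median of 0.05 over all genes. Over all genes that passed the minimum, 3.66% were past 2-fold higher in members at EHF than at MS-LS and 3.91% past 2-fold lower. From MS-LS to OB-EB these shares were 2.42% and 2.4%, and from OB-EB to EHF 9.2% and 5.88%. Counts of 0 or 1 in a list of this size are near these shares, and 7 of the 10 intervals lay above 0 and 2 below it. Apoa2 stood at 380, 499 and 693 CPM and Apoa4 at 284, 295 and 562. Mttp, which loads lipid onto apolipoprotein B, stood at 353, 387 and 273 and was lowest at EHF. Apob, a chosen gene and so given as a description only, was also lowest there. Apoa2 and Apoa4 were highest at EHF. Apoc2, the cofactor of lipoprotein lipase, ran the other way, with 112, 65.8 and 11.3 CPM. Its log2 difference from MS-LS to EHF was -3.30 (-3.92 to -2.74) in members and -3.57 in the trace found in other cells.

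Among plasma carriers, protease inhibitors and coagulation factors, Ttr, Rbp4, Serpinf2 and F10 were past 2-fold higher at EHF than at MS-LS, and none of the 9 that passed the minimum was past 2-fold lower, against 3.66% and 3.91% of all genes. Serpinf2, an inhibitor of plasmin, stood at 11.6, 19.2 and 39.9 CPM. Afp stood at 279, 248 and 378, a log2 difference of 0.44 from MS-LS to EHF (0.31 to 0.57). The fibrinogen chains Fgb, with 77.2, 70.8 and 129 CPM, and Fgg, with a log2 difference of 0.58 from MS-LS to EHF (0.27 to 0.90), were of the same pattern. F5 was low throughout and lowest at EHF, with 18.6, 15.8 and 2.52.

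The genes of uptake differed by less than 2-fold between stages. Amn stood at 505, 544 and 588 CPM and Lrp2 (megalin) at 227, 237 and 221, and none of the 9 measured genes of endocytic receptors and adaptors was past 2-fold in any stage pair, beside the shares of all genes given above. From MS-LS to EHF the intervals of 3 of the 9 lay above 0 and those of 2 below it, with a median of -0.04. For Lrp2 the interval of the log2 difference between EHF and MS-LS was -0.20 to 0.12. Tfrc, the transferrin receptor of dividing cells, was lower in members than in other cells in every library, at 27.5, 43.3 and 21.9 CPM against 63.2, 61.0 and 57.4.

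Lysosomal proteases were lowest at OB-EB and highest at EHF. Ctsl stood at 1774, 1045 and 2631 CPM, Ctsh at 574, 456 and 941, and Ctsz at 664, 526 and 1004. Ctsh and Ctsl were past 2-fold higher at EHF than at OB-EB, where 9.2% of all genes were. From MS-LS to EHF 0 of 19 lysosome genes passed 2-fold, against 3.66% higher and 3.91% lower of all genes, while the intervals of 12 lay above 0 and those of 2 below it. Their median was 0.44 in members and 0.44 in the other cells. Other cells moved the same way over the step from OB-EB to EHF, by 1.04 for Ctsh and 1.22 for Ctsl on the log2 scale, against 1.04 and 1.33 in members. The part of these differences that belongs to the libraries rather than to the endoderm was not tested.

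Of the 12 measured genes of brush border and epithelium, 2 were past 2-fold higher and 1 past 2-fold lower at EHF than at MS-LS, against 3.66% and 3.91% of all genes, with a median of 0.25 in members and 0.10 in the other cells. The intervals of 6 lay above 0 and those of 3 below it. S100g and Car7 belong to none of the lists and were chosen after their values were seen. S100g, the calcium binding protein calbindin-D9k of intestine and yolk sac, stood at 188 CPM at MS-LS (173 to 203), 263 at OB-EB (235 to 294) and 1072 at EHF (1031 to 1115). In the other cells S100g was at 5.99, 4.10 and 21.3. Car7, a carbonic anhydrase, stood at 95.2, 110 and 256 in members, while it was at 3.68, 1.73 and 2.44 in the other cells. Espn, an actin bundler of microvilli, stood at 28.4, 43.3 and 89.1. Pdzk1, a scaffold of the brush border, stood at 72.3, 85.9 and 150 CPM, and Vil1 (villin) at 71.7, 58.3 and 84.1. The adhesion gene Cdh1 was lower at EHF than at MS-LS by a log2 difference of -1.04 (-1.29 to -0.79), and by -0.77 in the other cells.

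Among the transcription factors that define the tissue, Hnf4a, the nuclear receptor that drives many liver genes, stood at 79.0 CPM at MS-LS (69.7 to 89.3), 60.8 at OB-EB (47.7 to 76.5) and 85.7 at EHF (74.4 to 98.3). On the log2 scale it differed by -0.38 at OB-EB from MS-LS (-0.77 to 0.00) and was 0.49 higher at EHF than at OB-EB (0.10 to 0.90). In the other cells Hnf4a was at 1.36 or below. From MS-LS to EHF, 0 of 9 factors were past 2-fold higher and 1 was past 2-fold lower, against 3.66% and 3.91% of all genes. The intervals of 5 lay below 0 and that of 1 above it, with a median of -0.39 in members and -0.48 in the other cells. The gene past 2-fold was Foxa2, with 58.6 CPM at MS-LS, 33.3 at OB-EB and 26.5 at EHF in members, and a log2 difference from MS-LS to EHF of -1.15 in members and -2.23 in the other cells. Gata4, Gata6 and Sox17 were lower at EHF than at MS-LS by log2 differences of -0.39, -0.77 and -0.54. Foxa1 fell outside the minimum in that comparison and stood at 17.4, 18.3 and 4.20.

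Of the 15 listed ligands and secreted signals, 5 passed the minimum from MS-LS to EHF. Of these, Ihh was past 2-fold higher and Bmp2, Fgf5 and Vegfa past 2-fold lower, against 3.66% and 3.91% of all genes. The log2 difference of Fgf5 was -5.12 in members and -4.80 in the other cells. The 15 genes summed to 412, 254 and 292 CPM in members. Ihh, a hedgehog ligand that the yolk sac endoderm sends to the mesoderm beneath, stood at 21.1 CPM at MS-LS (16.4 to 26.6), 13.3 at OB-EB (7.62 to 21.7) and 48.3 at EHF (39.9 to 58.0). Outside the members it was at 0.953, 0.182 and 0.667. After each cell was thinned to 1500 UMIs, 3.55%, 2.33% and 6.04% of members had an Ihh UMI. Its receptor and target Ptch1 was low in members throughout, at 16.5, 14.2 and 15.6 CPM, against 27.4, 37.0 and 46.1 in the other cells.

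Bmp2, a bone morphogenetic protein, ran opposite to Ihh. It stood at 63.5 CPM at MS-LS (55.1 to 72.7), 71.7 at OB-EB (57.3 to 88.5) and 14.3 at EHF, and at 21.3, 23.3 and 14.7 in the other cells. The share of thinned members with a Bmp2 UMI was 9.85%, 11.0% and 2.42%. At EHF the members' level was thus no longer above that of the other cells. Vegfa, which supports blood vessel growth, stood at 65.0, 36.7 and 15.6 CPM in members and at 7.35, 7.10 and 4.50 in the other cells. Bmp7 was low but highest at EHF, at 3.66, 6.67 and 26.9.

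Several genes of the anterior visceral endoderm were lowest at EHF. From MS-LS to OB-EB, 1 of the 6 that passed the minimum was past 2-fold lower (Dkk1) and 0 higher, against 2.4% and 2.42% of all genes, and the intervals of 2 lay below 0 and that of 1, Amot, above it. From MS-LS to EHF, 2 of 3 (Dkk1 and Cer1) were past 2-fold lower, against 3.91%. The 12 genes summed to 1377, 1401 and 688 CPM in members, most of it Amot. Dkk1, a Wnt inhibitor, stood at 70.8 CPM at MS-LS (62.0 to 80.5), 26.7 at OB-EB (18.2 to 37.7) and 8.83 at EHF (5.46 to 13.5). Cer1, an inhibitor of Nodal and BMP, stood at 36.6, 28.3 and 3.78. The log2 difference of Cer1 from MS-LS to OB-EB, -0.37, was within counting error (-0.96 to 0.19). From MS-LS to EHF it was -3.27, and -2.0 where cells with at least 3 of the chosen genes were taken as members. Otx2, a head organiser factor, stood at 20.4, 5.83 and 2.10. The Wnt inhibitors Sfrp1 and Sfrp5 stood at 36.0, 23.3 and 3.78 and at 13.7, 1.67 and 0.42. Lefty1 had 14, 0 and 0 UMIs. Cer1 and Otx2 were more abundant in the other cells than in members in every library, at 56.1, 53.6 and 19.8 for Cer1, while Dkk1 and Sfrp5 were more abundant in members at MS-LS.

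The anterior genes were held by a minority of the members. Of the 11 genes of the list (Amot, abundant in members at every stage, was set aside), 2 or more had a UMI in 109 members at MS-LS, 19 at OB-EB and 14 at EHF. That was 17.5% (14.6 to 20.7%), 6.01% (3.66 to 9.23%) and 4.13% (2.28 to 6.83%) of members. Thinned to 1500 UMIs, the shares were 7.27%, 3.65% and 0.302%, in the same order. This grouping was made after the values were seen, and the 11 genes themselves are not results within it. Part of the anterior RNA lay in the members of few carriers. At OB-EB those 8 cells held 11 Cer1 UMIs, against 23 in the rest of the members. At MS-LS those 15 cells held 19 Otx2 UMIs against 48. Cer1 and Trh are also listed with the definitive and gut endoderm genes. Whether all members with anterior genes are visceral endoderm was not tested.

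**Figure D2:**
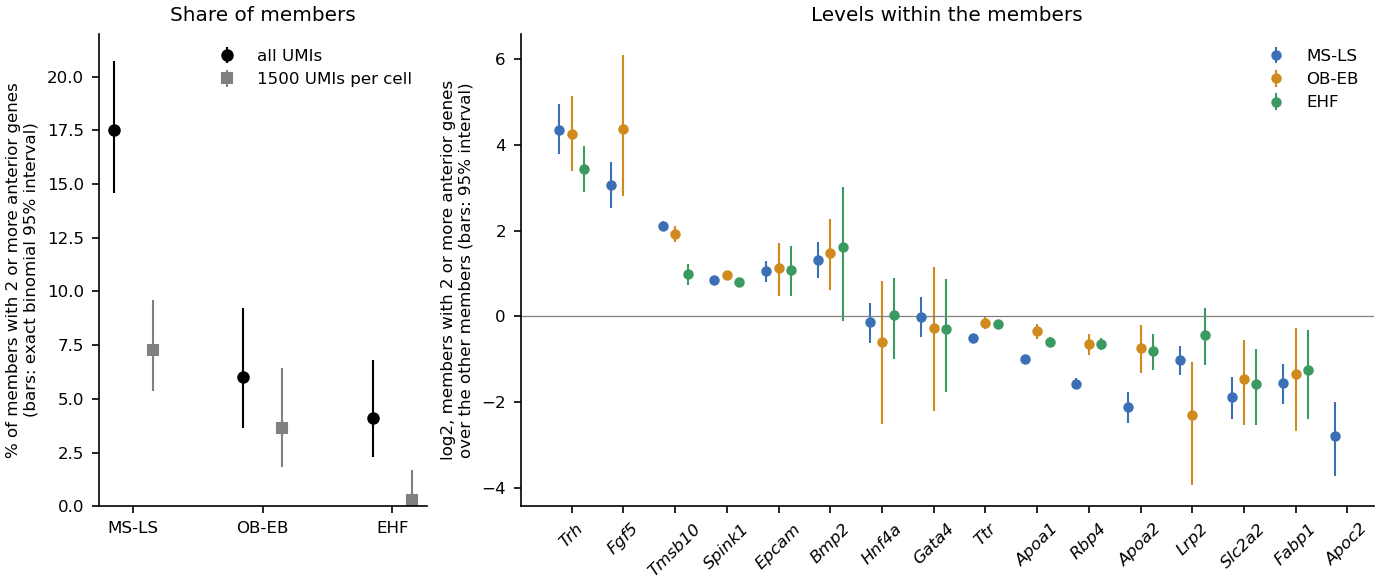
Left, the percentage of members with 2 or more of 11 anterior genes at each stage (black, all UMIs; grey, 1500 UMIs per cell) with exact binomial 95% intervals; right, the log2 ratio (y axis) of those members over the other members for named genes (x axis), coloured by stage, with 95% intervals for counting error; ratios with a group at 0 are not drawn. Trh and Fgf5 lie above 0, Hnf4a and Gata4 straddle it, and Rbp4, Apoa2, Slc2a2 and Fabp1 lie below it. Spink1 and Fabp1 are chosen genes, so their ratios are a description only.

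The members with anterior genes were then set beside those without, as a description. At MS-LS Hnf4a stood at 73.5 CPM in the members with anterior genes against 80.4 in those without, and Gata4 at 75.0 against 75.4. At OB-EB and EHF the log2 differences were -0.60 and 0.03 for Hnf4a and -0.28 and -0.29 for Gata4, all with intervals that held 0. Ttr stood at 3107 against 4387, and in the non-member cells of that library at 61.3. Apoa2 stood at 104 against 451 and Slc2a2 at 58.5 against 216. At OB-EB and EHF the log2 differences were -0.16 and -0.18 for Ttr, -0.74 and -0.81 for Apoa2, and -1.46 and -1.57 for Slc2a2. The uptake receptor Lrp2 stood at 125 against 254 at MS-LS, and its log2 differences at OB-EB and EHF were -2.30 and -0.43 (-1.13 to 0.20). Apoc2 stood at 19.5 against 136 at MS-LS. In the same library Trh stood at 242 against 11.9, Tmsb10 (an actin binding protein) at 2031 against 471 and Fgf5, a growth factor of the epiblast, at 147 against 17.6. The non-member cells of that library had 114 CPM of Trh and 91.4 of Fgf5. Pou5f1, a pluripotency factor that marks the epiblast, stood at 78.0 against 29.9, and at 563 in the non-member cells. Spink1 was higher in the members with anterior genes in every library, by log2 differences of 0.85, 0.97 and 0.81. It is a chosen gene that had a part in membership, so this is a description only.

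The stage differences in signals were then read within the members that had fewer than 2 anterior genes. From MS-LS to EHF, Bmp2 differed by -1.92 (-2.55 to -1.33) on the log2 scale in them, against -2.15 in all members. Vegfa differed by -2.11, against -2.06, and Ihh by 1.11, against 1.20. Ttr differed by 1.08 and Rbp4 by 1.12, against 1.16 and 1.30. Grb10, an imprinted adaptor of growth factor receptors, differed by -0.39 (-0.72 to -0.07), against -1.20 in all members. Fgf5 differed by -3.73, against -5.12 in all members and -4.80 in the other cells. Without the members of few carriers, Ttr differed by 1.21 and Rbp4 by 1.35 from MS-LS to EHF. Both genes are part of the carrier sum that set those members apart, so these values are a description and no check.

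Over all genes, 195 of 5321 were past 2-fold higher at EHF than at MS-LS in members and 208 past 2-fold lower. From MS-LS to OB-EB, 123 were higher and 122 lower of 5080, and from OB-EB to EHF, 480 were higher and 307 lower of 5218. With scaling by the median of ratios the split from OB-EB to EHF turned to 290 higher and 403 lower, and that from MS-LS to EHF to 140 and 259. A large part of these genes changed alike in the rest of the library. Of the 195 genes higher at EHF than at MS-LS, 106 were also past 2-fold higher in the other cells, and of the 208 lower genes 137 were also lower there. The genes with the surest differences were mostly of this kind. Actb (beta actin) stood at 3529, 16887 and 1808 CPM in members, and its log2 difference from MS-LS to OB-EB was 2.26 in members and 2.76 in the other cells. Alyref, Rbm45, Hsf2 and a row of pseudogenes behaved likewise, with Gm10076 at 429, 155 and 1638 in members.

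**Figure D3:**
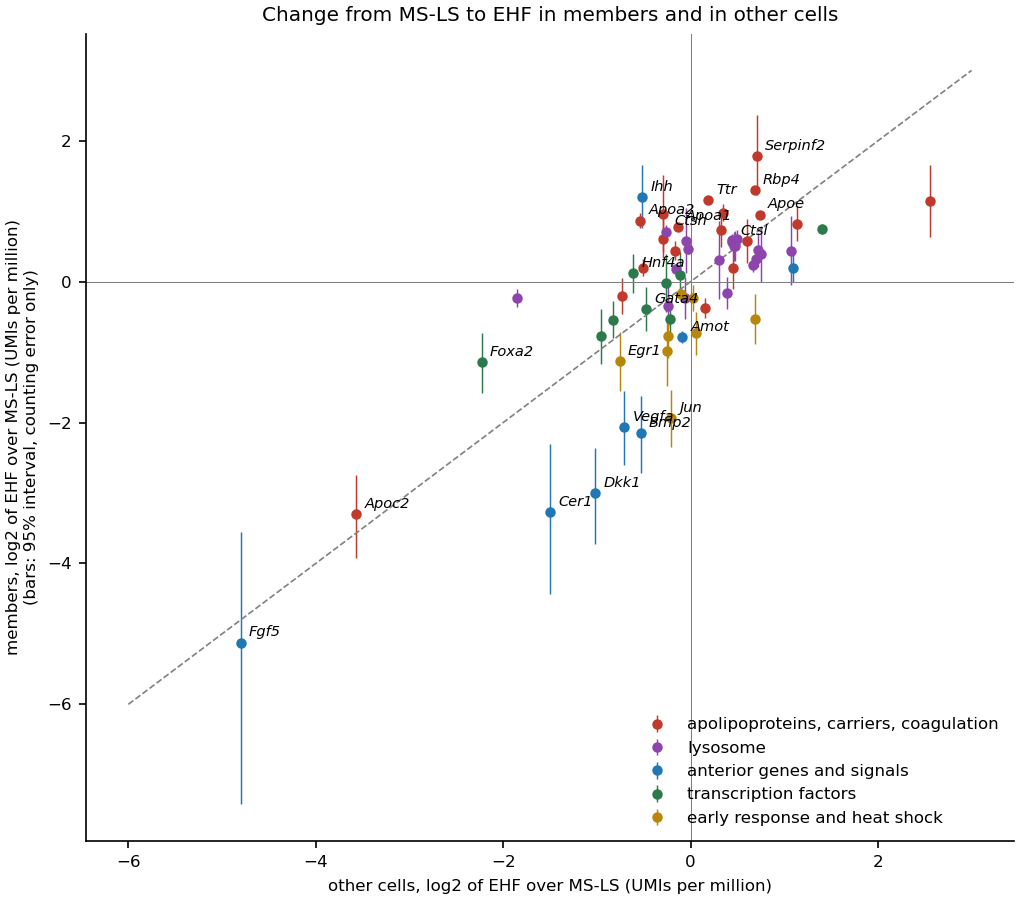
Log2 ratio of EHF over MS-LS in CPM, in the other cells (x axis) and in members (y axis), for genes of 5 groups of lists that passed the minimum, with 95% intervals for counting error on the y axis; the dashed line marks equal change. Ttr, Rbp4, Apoa2 and Ihh lie above the line, Bmp2, Vegfa, Dkk1, Cer1 and Jun lie below it, and Apoc2 lies near it.

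Once the change of the other cells was subtracted (a reading added after the values were seen), 71 genes were past 2-fold higher and 152 past 2-fold lower at EHF than at MS-LS. Among those whose own interval cleared 0.5, the largest excess was that of Car7 (2.02 on the log2 scale), followed by Ihh, Rnase4, Tm4sf5 and Nudt11. Spp2, a secreted phosphoprotein made by liver, stood at 53.4, 61.7 and 104 CPM and was at 1.23 or below in the other cells. Among the largest deficits were those of Srgn, Kitl, Gpc4, Dkk1 and Flrt3. Srgn (serglycin, also high in parietal endoderm) stood at 68.0, 12.5 and 12.6 in members and at 3.54, 1.18 and 12.7 in the other cells. Kitl, the ligand of the Kit receptor of blood and germ cells, stood at 38.7, 29.2 and 8.83 in members and at 6.26, 11.5 and 14.2 in the other cells.

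From OB-EB to EHF the same reading put Hsd17b2, Mlx, Pla2g12b, Platr15 and Tm4sf5 first. Pla2g12b, which takes part in lipoprotein secretion, stood at 154, 65.8 and 255 CPM in members and at 3.00 or below in the other cells. It was lowest at OB-EB. From MS-LS to OB-EB the largest deficits were those of Jun, Mest, Fgf5, Nfatc3 and Fos. The early response genes Jun, Fos and Egr1, which dissociation can also induce, stood at 99.8, 61.3 and 59.8 at MS-LS and at 15.0, 16.7 and 14.2 at OB-EB. In the other cells Jun was at 27.6 and 23.8, Fos at 41.6 and 29.9 and Egr1 at 38.7 and 13.8, so that Egr1 was past 2-fold lower there too. Of the 8 measured genes of the dissociation and heat shock list, 5 were past 2-fold lower at OB-EB than at MS-LS, against 2.4% of all genes, with a median of -1.21 in members and -0.52 in the other cells. The part of cell handling in the MS-LS values was not tested.

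Epiblast and mesoderm markers were lower in members than in the other cells. The 6 epiblast genes summed to 418, 413 and 241 CPM in members, against 1688, 1455 and 783 in the other cells. The 8 streak and mesoderm genes summed to 28.7, 49.2 and 91.2, against 273, 427 and 437. The 9 trophoblast genes were lower in members at MS-LS and EHF and higher at OB-EB, with sums of 130, 168 and 161 against 222, 94.5 and 293. Elf5 had at most 1.22 CPM in members and at least 13.5 in the other cells, whereas Sfmbt2 was higher in members, at 86.7, 124 and 87.4 against 61.3, 36.5 and 50.4. The 10 definitive and gut endoderm genes, some of which visceral endoderm shares, summed to 293, 230 and 200 against 295, 221 and 158. Hbb-bh1, an embryonic globin, was at 32.8 at EHF in members and at 277 in the other cells, and 13.0% of members and 16.5% of other cells had a UMI of it. The part of free blood RNA in this was not tested. The 12 parietal endoderm genes, most of them basement membrane components that visceral endoderm shares, were higher in members, with sums of 800, 548 and 957 against 129, 125 and 503, and 7 of the 7 measured were past 2-fold higher at MS-LS, 4 of 5 at OB-EB and 3 of 6 at EHF, against 17.2%, 16.8% and 14.2% of all genes. Pth1r was past 2-fold higher in members in every library, and Srgn at MS-LS. Thbd had 0 UMIs in members. The part of parietal endoderm cells in these values was not tested.

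The reporter was rarer in members than in the other cells. The WPRE-tdTomato feature had a UMI in 3 of 623 members at MS-LS, 2 of 316 at OB-EB and 6 of 339 at EHF, or 0.482% (0.0994 to 1.40%), 0.633% (0.0767 to 2.27%) and 1.77% (0.652 to 3.81%). Outside the members the shares were 2.39%, 3.53% and 12.6%. At EHF, 3 of its 6 member UMIs were in the 15 members of few carriers. T itself was at 3.97, 15.0 and 16.0 CPM in members, against 46.8, 105 and 98.9 in the other cells. The SV40poly(A)signal feature, by contrast, had a UMI in 18.6%, 12.7% and 5.31% of members and in 17.9%, 17.1% and 4.37% of other cells.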

How the data were processed

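Single-cell libraries of 3 stages were analysed. The authors dissociated embryos, prepared Chromium 3′ libraries and counted UMIs with Cell Ranger 3.0.2 on GRCm38. They left out cells by detected genes, UMIs and mitochondrial share, and deposited raw counts per gene and cell, and the smallest total of a cell in the tables was 1001 UMIs. All cells of the deposited tables were used, and doublets were not called.

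From these counts, UMIs were summed over members and over the other cells of each library and divided by the group's total (CPM). Sums carry exact Poisson intervals, shares Clopper-Pearson intervals and ratios the exact conditional interval, at 95%, and a group at 0 was set to a floor of 3 UMIs. Library totals were 17966956, 12181436 and 20376539 UMIs. Genes needed a mean of 20 CPM and 20 UMIs over the groups compared. No test was made, since each stage is 1 library. Named genes were the chosen genes, the 10 with the largest bound of the ratio in each comparison, and of each list the most abundant and those past 2-fold. Mitochondrial, ribosomal, vector, sex-linked and chosen genes were left out of the ranking between stages. The ranking of members over other cells left none of them out. The members and the lists were chosen with earlier results of these data known. The subsets of members and the reading with the other cells subtracted were set after the values were seen. Shares were also taken after thinning each cell to 1500 UMIs, which left out 4, 15 and 8 members. The ratios were tested on simulated data. Python 3.11.15, numpy 2.4.6, scipy 1.17.1 and pandas 2.3.3 were used. List genes without a row in the tables used are not analysed here, and some genes are not reported here. Alternatives for the rule, the minimum, the scaling and the cells kept are given with the limits.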

Additional observations from a re-analysis of the deposited data

How the results depend on the processing

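No paired analysis was possible because each stage is 1 library. The share of cells that are members moved with the rule and, at OB-EB, with the depth of the cells kept. With 3 or more chosen genes it was 20.6% at MS-LS, 9.56% at OB-EB and 11.96% at EHF, and with 5 or more it was 15.2% at MS-LS and 6.79% at OB-EB. Without Dab2 it was 15.5% and 6.86% at the same stages. Among cells of at least 2000 UMIs it was 9.46% at OB-EB, and with the rule applied to cells thinned to 1500 UMIs it was 14.9% at MS-LS and 8.47% at EHF. The share was highest at MS-LS in each of these.

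Counts of genes past 2-fold depended on the minimum. At a mean of 50 CPM they were 68 higher and 42 lower from MS-LS to OB-EB, 196 and 156 from OB-EB to EHF, 82 and 101 from MS-LS to EHF, and 386, 378 and 379 higher in members than in other cells at MS-LS, OB-EB and EHF. With 1 UMI in each group as the minimum they were 1295 and 959, 1997 and 1085, 1884 and 1050, and 3182, 2840 and 2731. Scaling by the median of ratios gave 290 higher from OB-EB to EHF and moved the median of all genes from 0.16 to 0.01. With the change of the other cells subtracted, an alternative chosen after seeing the data like those that leave out members with few carriers or with anterior genes, the counts were 37 and 44, 64 and 114, and 71 and 152, and the log2 difference from MS-LS to EHF turned sign for Foxa2 (1.08), Gata4 (0.091) and Apoc2 (0.26), since these were lower still in the other cells. In this reading free endoderm RNA in the other cells counts against the members. Over 25 named genes and all alternatives, 257 of 325 log2 values stayed within the counting interval of the value reported, 65 lay outside it with the same sign, and 3 turned sign. Genes with few UMIs at EHF, such as Cer1 and Fgf5, are limited by depth.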

Other observations

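Some members carried at least 3 of the genes Fabp3, Aqp8, Plod2, Igfbp1, Klf4, Flt1 and Pdgfra. Members with at least 3 of these 7 genes and fewer than 2 anterior genes numbered 40 of 623 at MS-LS, 8 of 316 at OB-EB and 28 of 339 at EHF. The genes were picked from these cells after their values were seen, so the grouping is a description with no test. The members set beside them, called the remaining members, numbered 471 at MS-LS, 285 at OB-EB and 283 at EHF. They are not all members outside the set, since those with anterior genes and some further members were left out. In the set Fabp1 stood at 428 CPM at MS-LS and 308 at EHF, against 175 and 168 in the remaining members. Apoa2 stood at 757 and 999.7 against 426 and 727. Apoa1 went the other way, at 2418 and 4960 against 4468 and 7333, as did Rbp4, at 1328 and 3788 against 2524 and 5707. Both genes are part of the carrier sum used to set members apart, so these values are a description only. Afp was also lower, at 171 and 222 against 312 and 426. Spink1 was lower too, at 10601 and 8386 against 20411 and 14243. Fabp1 and Spink1 are chosen genes, so their values are a description only. Cdkn1c, an inhibitor of the cell cycle, stood at 181 and 335 against 51.9 and 93.1. It was not particular to the set. At EHF the members with anterior genes had it at 389, against 113 in the members without. The trophoblast factor Elf5 had 0 UMIs in the set in all 3 libraries. Trh, which led the anterior members at MS-LS and EHF, had 0 UMIs in this set at EHF. Dkk1, listed with the anterior genes, was higher in this set at MS-LS, at 80.9 CPM against 11.7. That rests on 17 UMIs in the set, so Dkk1 was not confined to the members with 2 or more anterior genes.

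Genes of DNA synthesis were lower in members than in the other cells in every library. The 12 S phase genes summed to 1255, 1102 and 1052 CPM in members, against 2041, 1982 and 1907, and the 12 genes of G2 and M phase to 1253, 1119 and 1388, against 1526, 1393 and 1928. Rrm2, a subunit of ribonucleotide reductase, stood at 188, 212 and 139 in members and at 470, 570 and 405 in the other cells.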
